A study of Homo sapiens and Homo sapiens
Mus musculus and Mus musculus with 9 samples.

Results

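The genes described here are long non-coding RNAs linked to prostate cancer or to structures of the cell nucleus. Of 8 gene symbols chosen (MALAT1, NEAT1, PCGEM1, PCAT1, PCA3, H19, LINC01088 and DRAIC), 7 were found by symbol among the 41713 genes of the deposited human table, which lists 10553 long non-coding RNA genes. H19, an imprinted RNA of chromosome 11, matched no symbol and was not analysed here. The table covers C4-2B cells cultured alone (3 libraries) and a mixed co-culture of C4-2B with MC3T3-E1 cells at 30 MC3T3-E1 cells to 1 C4-2B cell (3 libraries), made to study dormancy of prostate cancer cells beside osteoblasts. C4-2B cells come from an androgen-independent human prostate cancer line, and MC3T3-E1 is an osteoblast line of the mouse. All cells were labelled wild type. The labels give alpha-MEM with fetal bovine serum as the medium of all cells, whereas the study's methods name RPMI medium for the C4-2B line. For co-culture the methods name the medium of the stromal cells, which is alpha-MEM for MC3T3-E1. Another 3 libraries, of MC3T3-E1 without C4-2B, were not analysed here. The model is limited to 1 human and 1 mouse cell line, and the co-culture was sequenced as mixed RNA, so human reads were separated from mouse reads after sequencing. In such bulk RNA, fewer cells and less RNA per cell cannot be told apart.

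Long non-coding RNAs are transcripts that are not translated into a long protein, and many of them stay in the nucleus. MALAT1 is concentrated in nuclear speckles, which store splicing factors, and NEAT1 is the RNA scaffold on which paraspeckle proteins assemble. PCA3 is transcribed from within the PRUNE2 gene on the opposite strand and is used as a urine marker of prostate cancer. PCGEM1 and PCAT1 were first described as transcripts of prostate tissue and prostate cancer, and DRAIC as an RNA linked to the invasion of cancer cells.

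For each gene the deposited table gives 1 mean over the libraries of both culture conditions of the counts divided by size factors, the mean count. The human reads came from either of the species filters Xenome, which sorts reads before alignment, and XenofilteR, which sorts aligned reads. Kallisto, the third quantification of the table, listed no value for any long non-coding RNA. A mean over both conditions gives no difference between them, so the levels below describe the human RNA of both cultures together, and no test of co-culture against C4-2B alone was made. The labelled cell type was checked first. All 9 prostate markers found in the table had mean counts of at least 50 after Xenome, where 65.4% of all 17827 protein-coding genes with a value did. The prostate markers ran from 1897 for TRPM8, an ion channel of prostate epithelium, to 51038 for KLK3, which encodes prostate-specific antigen. Of 10 osteoblast markers, 2 reached 50 after Xenome, COL1A1 (type I collagen) at 3384 and RUNX2 (an osteoblast transcription factor) at 411, and 4 were below 1. COL1A2 differed between the filters, with a mean count of 45.0 after Xenome and 264 after XenofilteR. COL1A1 differed as well, with 4557 after XenofilteR, while RUNX2 had 400. Whether mouse reads had a part in these values was not tested.

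Because mouse RNA was present in the co-culture, the stretches that each RNA shares with mouse transcripts were located first. Every 31-base sequence of the GENCODE 44 transcripts of each gene was searched in the mouse transcripts of GENCODE M21, on both strands. MALAT1 shared 75 of its 12031 distinct 31-base sequences (0.623%), a higher share than 90.4% of 1403 long non-coding RNAs, those found in GENCODE 44 among the 1423 whose Xenome mean count reached 50. NEAT1 shared 68 of 22872 (0.297%), PCAT1 23 of 18768 (0.123%), PCA3 14 of 14484 (0.0967%) and DRAIC 12 of 32431 (0.0370%). LINC01088 and PCGEM1 shared none. Among these 1403 long non-coding RNAs, 58.5% shared none. At the length of 1 sequencing read, 50 bases, MALAT1 shared 20 sequences, NEAT1 13, and the other 5 genes none.

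The kind of shared stretch differed between both nuclear RNAs. All 11 shared stretches of MALAT1 were found in mouse Malat1, its counterpart, and in no other mouse gene. None of the 6 stretches of NEAT1 was found in mouse Neat1. Of these, 3 long ones, of 63, 43 and 41 bases, were TG or TA repeats found in other mouse genes. A second stretch of 41 bases was found in 3 mouse genes. The longest stretch of 3 members is shown on GRCh38, plus strand, from 5′ to 3′, because it is there that a human read is least distinct from a mouse read. Capitals mark the longest stretch identical to the same mouse transcript and lower case its 20 flanking bases on either side. Flanking bases can be part of matches to other mouse transcripts.
MALAT1, chr11:65505118-65505226: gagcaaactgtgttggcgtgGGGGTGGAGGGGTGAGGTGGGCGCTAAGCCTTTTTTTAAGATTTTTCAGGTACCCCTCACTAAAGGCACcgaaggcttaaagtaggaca
NEAT1, chr11:65444244-65444346: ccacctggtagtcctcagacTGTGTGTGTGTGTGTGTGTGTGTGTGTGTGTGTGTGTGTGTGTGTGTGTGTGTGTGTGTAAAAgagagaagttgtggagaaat
PCA3, chr9:76785909-76785992: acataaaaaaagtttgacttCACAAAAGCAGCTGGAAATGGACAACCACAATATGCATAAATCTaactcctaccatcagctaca
The MALAT1 stretch spans 69 bases of mixed sequence. The NEAT1 stretch spans 63 bases and consists almost wholly of a TG repeat. The PCA3 stretch, which was found in the mouse gene Gm27970, spans 44 bases and is shorter than 1 read.

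MALAT1 (ENSG00000251562, GRCh38 chromosome 11, 65497688 to 65506516, plus strand) had the highest mean count of the 10543 long non-coding RNAs with a value after Xenome. Its mean count was 70663 after Xenome and 70660 after XenofilteR, which placed it at rank 22 of all 39193 genes with a value after Xenome and at rank 24 of 38993 after XenofilteR. It held 10.5% of the mean counts of all long non-coding RNAs, which together made up 1.58% of all mean counts. SNHG14, a long host transcript of small nucleolar RNAs, followed with 30802. NORAD, a cytoplasmic RNA that binds PUMILIO proteins, followed with 23434 and TUG1 with 15499.

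NEAT1 (ENSG00000245532, chromosome 11, 65422774 to 65445540, plus strand) had the fifth highest mean count of the long non-coding RNAs, 15178 after Xenome and 15164 after XenofilteR. It lies upstream of MALAT1 on the same strand and came between TUG1 and SNHG29, which had 12121. Per kilobase of exonic sequence, MALAT1 had 6772 and NEAT1 667, so that MALAT1 was 10.2 times NEAT1 per kilobase and 4.66 times in mean count. By level per kilobase MALAT1 remained first, and NEAT1 took rank 36 of 10442. NEAT1 has a short and a long transcript that share the 5′ part, and a gene count does not separate them.

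Genes of proteins that assemble with both nuclear RNAs were counted as well. Of all 17827 protein-coding genes with a value, 65.4% reached a mean count of 50, and their median was 517. All 10 paraspeckle protein genes listed reached 50, with a median of 9925, from 3053 for PSPC1 to 31896 for SFPQ, with NONO, the binding partner of SFPQ, at 25980. All 8 nuclear speckle protein genes listed, with a median of 10436, lay between 6435 for the splicing factor SRSF5 and 31314 for the splicing co-activator SRRM2. Of 10 other non-coding RNAs with nuclear roles, 8 had a value and 4 reached 50, where 13.5% of all long non-coding RNAs did. TUG1 was the highest of these and MEG3, an imprinted RNA, the lowest at 0.178.

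The prostate-linked members had lower mean counts than both nuclear RNAs. PCAT1 (ENSG00000253438, chromosome 8, 126556323 to 127419050) had a mean count of 395 after Xenome and 397 after XenofilteR, at rank 252 of the long non-coding RNAs. DRAIC (ENSG00000245750, chromosome 15, 69462921 to 69843120) had 306 and 305, at rank 342. PCA3 (ENSG00000225937, chromosome 9, 76691980 to 76863307) had 97.0 and 96.9, at rank 936. All 3 were above the median of long non-coding RNAs, 2.97. LINC01088 (ENSG00000249307, chromosome 4, 78939485 to 79309673) was close to that median at 3.20, and PCGEM1 (ENSG00000227418, chromosome 2, 192749845 to 192776899) was below it at 0.194, at rank 8748. Both rest on few reads, and without 1 of the 6 libraries whose reads were solved the mean of LINC01088 fell to 2.00 (without library 6, which holds 1 read) and that of PCGEM1 to 0.0823 (without library 2, which holds 4 reads).

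Exonic length changed the distances between these genes. Per kilobase, PCAT1 had 21.4, DRAIC 9.73, PCA3 6.84, LINC01088 0.300 and PCGEM1 0.113. By this level PCAT1 took rank 1952 of 10442, DRAIC 3076, PCA3 3596, LINC01088 7934 and PCGEM1 9099. LINC01088 was thus close to the middle of the long non-coding RNAs by mean count and not per kilobase. PCAT1 was 1.29 times DRAIC in mean count and 2.19 times per kilobase. DRAIC was 3.15 times PCA3 in mean count and 1.42 times per kilobase. The order of the 7 genes was the same on both scales. All 7 lie on the plus strand.

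**Figure D1:**
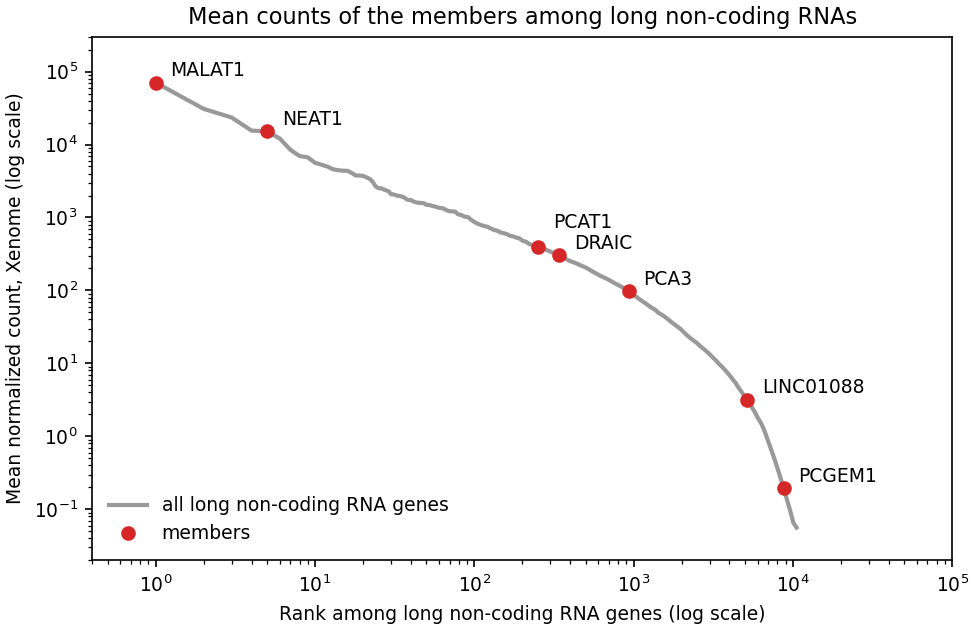
The plot gives the mean normalized count after Xenome on the vertical axis (log scale) against the rank among the 10543 long non-coding RNA genes on the horizontal axis (log scale), with the 7 members as red points and all genes as the gray line. MALAT1 and NEAT1 sit at ranks 1 and 5, PCAT1, DRAIC and PCA3 between ranks 252 and 936, and LINC01088 and PCGEM1 at ranks 5170 and 8748.

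Among 16 other prostate-linked non-coding RNAs, 14 were listed and 7 had mean counts of at least 50, with a median of 72.9, beside the same 13.5% of all long non-coding RNAs. GAS5, a growth arrest RNA that hosts small nucleolar RNAs, was the highest at 4972, and PVT1, the neighbour of MYC, had 1206. SCHLAP1, an RNA of aggressive prostate cancer, had 104 over 1.44 kb of exonic sequence, or 72.5 per kilobase, above the 21.4 per kilobase of PCAT1. PCAT18 was the lowest at 1.58. On 11p15, the region of H19, the imprinted growth factor gene IGF2 had a mean count of 0.353 and PHLDA2 1661.

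Overlapping genes limit what a count of PCA3 or PCAT1 can be assigned to, since the library kit keeps strand but the strand setting of the counting is not given in the sources used here. PCA3 lies inside PRUNE2, which is on the opposite strand, had a mean count of 55044 and shares 1060 exonic bases with it. PCAT1 shares 1409 exonic bases with LRATD2 on the opposite strand, with a mean count of 5257, and 848 with POU5F1B on its own strand, with 12.6. DRAIC shares 627 exonic bases with an antisense RNA with a mean count of 1.64. LINC01088 overlaps NAA11 (mean count 67.3) on the opposite strand with no exonic base in common. Whether reads of these neighbours entered the members' counts was not tested.

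The choice of species filter changed the members by less than 0.5%. Relative to the Xenome mean, the XenofilteR mean changed by -0.00426% for MALAT1, -0.0880% for NEAT1, -0.121% for PCGEM1, -0.0551% for PCA3 and -0.115% for DRAIC. The change was 0.0532% for LINC01088 and 0.483% for PCAT1. Among the 1423 long non-coding RNAs whose Xenome mean count reached 50, 84.5% lay within 1% and the median ratio of XenofilteR to Xenome was 1.00. Among 601 processed pseudogenes, near copies of other genes, 19.3% lay within 1%. The 5 members with means of that size lay within 1% as well. LINC01088 and PCGEM1 are below that size and had the same reads in all 6 libraries under both filters, so their changes come from the size factors alone.

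**Figure D2:**
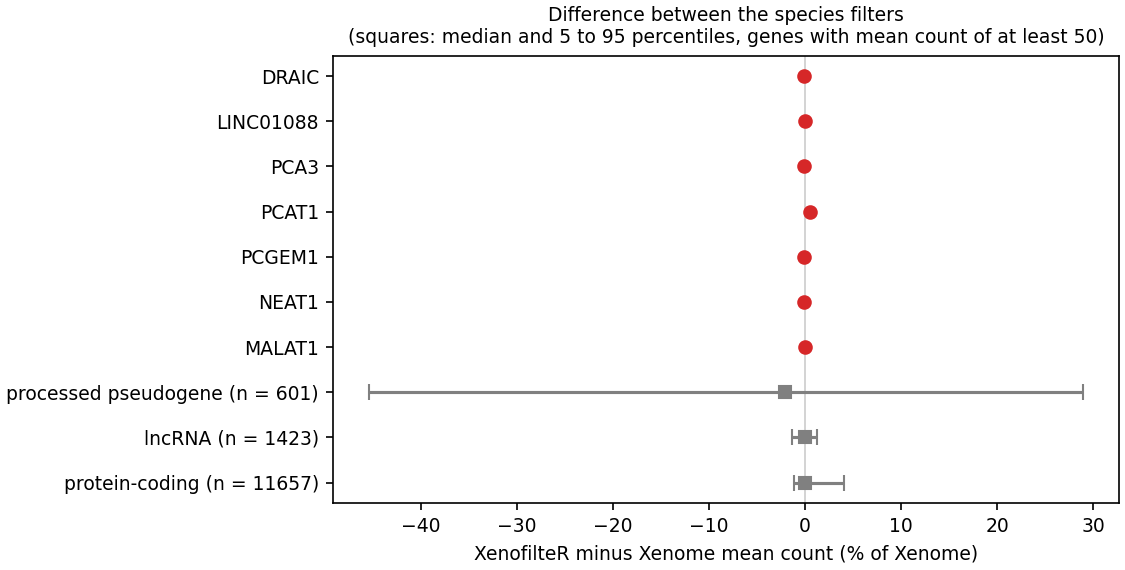
The horizontal axis gives the XenofilteR minus the Xenome mean count as a percentage of the Xenome mean; red points are the 7 members, and gray squares with bars give the median and the 5 to 95 percentiles of 11657 protein-coding genes, 1423 long non-coding RNAs and 601 processed pseudogenes whose mean count reached 50. The members lie between -0.121% and 0.483%, and the processed pseudogenes spread far wider.

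A mean of whole reads divided by 6 size factors carries the reads of each library in its digits, and for 5 of the 7 members these reads could be solved. MALAT1 and NEAT1 were not tried, since the search was limited to means up to 500. The 6 libraries are numbered here by falling size factor, and the labels tie no number to a culture condition or replicate, so the values are given per library and are not compared between conditions. Size factors ran from 5.93 in library 1 to 0.109 in library 6. In libraries 4 to 6 the members rest on few reads, and the exact Poisson 95% intervals below cover counting error only.

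PCAT1 had 2204, 1646, 1616, 184, 74 and 45 reads in libraries 1 to 6. Divided by size factor, these were 372, 310, 332, 431, 511 and 413. Library 2 was the lowest, with an interval of 295 to 325, and library 5 the highest, with an interval of 401 to 642. Neither is settled by the reads, as the intervals of libraries 3 and 6 (316 to 349 and 301 to 553) overlap that of library 2 and those of libraries 4 and 6 overlap that of library 5. The highest library was 1.65 times the lowest. The reads are those of the pair of solutions nearest between the filters, out of 5124 after Xenome and 5288 after XenofilteR, so their likeness between filters is fixed by that choice. With a tolerance 10 times as wide these remained the nearest reads, but a second pair came within the limit of 0.2 and the rule for accepting them was no longer met, so every value of PCAT1 per library given here depends on the tolerance.

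DRAIC had 865, 1461, 1311, 124, 53 and 53 reads. Divided by size factor, these were 146, 275, 270, 291, 366 and 487. In these reads library 1 was the lowest, with an interval of 136 to 156 that lay below the intervals of all other libraries. Library 6 was the highest at 3.33 times library 1, with an interval of 365 to 637. Libraries 2, 3 and 4 had overlapping intervals. The DRAIC reads too are those of the pair of solutions nearest between the filters, out of 1341 after Xenome and 1334 after XenofilteR. Their likeness between filters is fixed by that choice, which the intervals do not cover. With the wider tolerance there were 13630 and 13553 solutions. The same reads still met the rule, but the next pair, at a distance of 0.245, was little beyond the limit of 0.2.

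PCA3 had 682, 282, 387, 70, 14 and 8 reads. Divided by size factor, these were 115, 53.1, 79.6, 164, 96.7 and 73.5. Library 2 was the lowest, with an interval of 47.1 to 59.6, and library 4 the highest, with an interval of 128 to 207. These intervals do not overlap, and library 4 was 3.09 times library 2. Libraries 5 and 6, with 14 and 8 reads, had intervals of 52.9 to 162 and 31.7 to 145 and could not be placed.

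**Figure D3:**
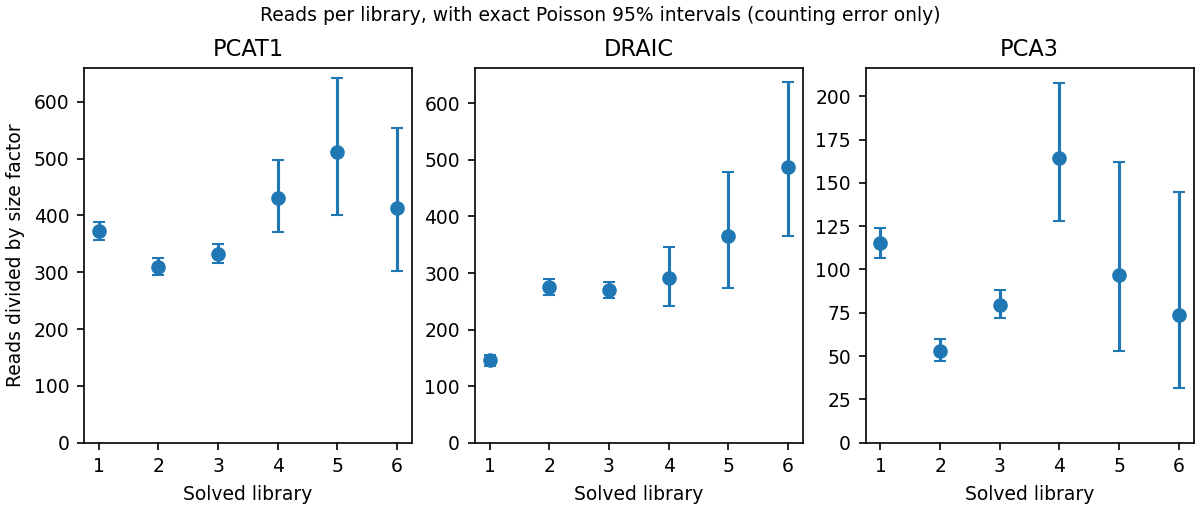
Each panel gives reads divided by size factor (vertical axis, from 0) in the 6 solved libraries (horizontal axis, by falling size factor), with exact Poisson 95% intervals as bars, for PCAT1, DRAIC and PCA3 after Xenome. DRAIC is lowest in library 1 (146) and PCA3 in library 2 (53.1), and the bars widen in libraries 4 to 6.

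PCA3 and DRAIC each had a library in which the gene stood low among long non-coding RNAs of like level. Each library's value was divided by the gene's own mean and set beside the solved long non-coding RNAs of like mean count. These were 249 genes with means of 80 to 120 for PCA3 and 170 with means of 250 to 450 for DRAIC and PCAT1. Size factors and the own mean largely hold the medians of these genes near 1, so only a member's place among them is read. PCA3 in library 2 stood at 0.547 of its mean, where the median of the 249 genes was 1.05 and none was lower. In library 4 it stood at 1.69, above 99.2% of them. DRAIC in library 1 stood at 0.478 of its mean, where the median of the 170 genes was 1.01 and 0.588% were lower. In library 6 it stood at 1.59, above 99.4% of them. Both DRAIC values rest on the pair of solutions chosen as nearest between the filters. The libraries with the lowest values of the 2 genes thus differed. Which library was highest is not settled by the reads. The intervals of libraries 5 and 6 overlap for DRAIC, and for PCA3 those of libraries 5 and 6 overlap that of library 4. The lowest library of PCA3 is not settled either, as the intervals of libraries 5 and 6 overlap that of library 2.

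PCAT1 varied less between libraries. It was lowest in library 2, at 0.784 of its mean, with 2.94% of the 170 genes lower. Its ratio of highest to lowest library, 1.65, was above that of 65.3% of the 170 genes, whose median ratio was 1.52. For DRAIC the ratio of 3.33 was above 95.9% of the same genes. For PCA3 the ratio of 3.09 was above 84.7% of its 249 genes, whose median was 2.01.

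**Figure D4:**
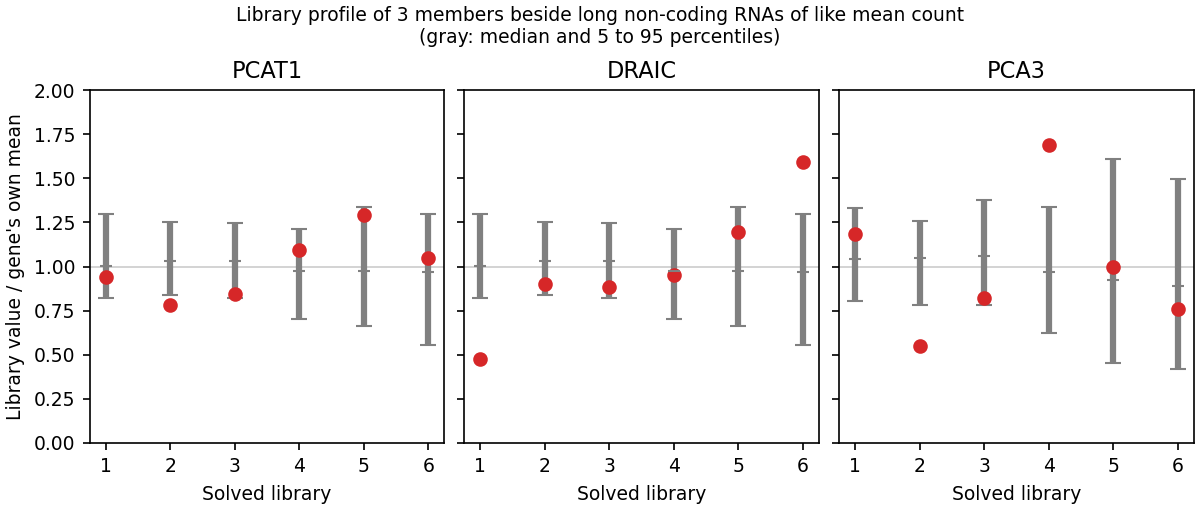
Each panel gives the library value divided by the gene's own mean (vertical axis) in the 6 solved libraries (horizontal axis), as red points for PCAT1, DRAIC and PCA3, beside the median and the 5 to 95 percentiles of the solved long non-coding RNAs of like mean count in gray. DRAIC in libraries 1 and 6 and PCA3 in libraries 2 and 4 lie outside the gray bars, and PCAT1 lies below them in library 2 alone.

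Within each library the order of the 3 genes was mostly kept. In reads divided by size factor, not per length, PCAT1 was above DRAIC in libraries 1 to 5 and below it in library 6, and their intervals overlap in libraries 5 and 6. DRAIC was above PCA3 in all 6 libraries. Over the libraries, the range of DRAIC (146 to 487) overlapped those of both PCAT1 (310 to 511) and PCA3 (53.1 to 164), while the ranges of PCAT1 and PCA3 did not overlap.

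LINC01088 and PCGEM1 were too low for a comparison of libraries. LINC01088 had 14, 7, 8, 2, 0 and 1 reads in libraries 1 to 6, with the same reads under both filters. In libraries 1 to 3 these gave 2.36, 1.32 and 1.65 after division by size factor, with overlapping intervals. PCGEM1 had 4 reads in library 2, 2 in library 3 and none in the other 4 libraries. With the limit for a count of 0 set at 3 reads, a lower bound than the upper end of the exact Poisson interval, this limit was 0.506 in library 1 and 27.6 in library 6 (0.622 and 33.9 by that interval), so that in the libraries with few reads PCGEM1 was not detectable at this depth.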

How the data were processed

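Libraries were made from 500 ng of total RNA with a stranded mRNA kit and sequenced as 50 bp paired-end reads, to at least 40 M reads each. Human reads were selected by the authors with Xenome before alignment by HISAT2 to GRCh38. With XenofilteR they were selected after alignment by HISAT2 to both GRCh38 and the mouse genome. Reads were counted per gene with featureCounts, while Kallisto was run on a joined human and mouse transcriptome. Versions of these tools and of DESeq2 are not given in the sources used here. The value deposited by the authors and used here is the mean over both groups of counts divided by DESeq2 size factors, not a count of 1 library. The table also holds the authors' log2 fold changes, standard errors, test statistics and p-values between groups, and these were not used, so no test between groups was made. Of 41734 rows, 21 repeat a gene and were dropped. Groups are those of the labels.

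Whole reads per library were solved by an exhaustive lattice search from the 15 significant digits of each mean up to 500. Where several solutions remained, the pair nearest between Xenome and XenofilteR was kept if its distance (the sum of squared differences of square roots of reads) was at most 0.2 and the next pair was farther than 0.2 and at least 2 times as far. In simulated data with these size factors, 38 of 40 genes with means of 250 to 450 and all 60 with means of 50 to 120 were accepted, all with the right reads. The XenofilteR reads were simulated there as a near copy of the Xenome reads, which is the likeness that the rule relies on. The simulation therefore cannot show how often the rule errs where the filters differ more. Total counts, estimated as size factor times the sum of the means, ran from 4.61 to 251 M per library after Xenome. Intervals are exact Poisson at 95%. Exonic lengths are from GENCODE 44, where MALAT1 has another span than in the table and the other 6 members the same. Python 3.11.15 was used with pandas 2.3.3, numpy 2.4.6, numba 0.67.0, scipy 1.17.1 and, for plots, matplotlib 3.10.9.

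The members and lists were chosen with earlier results of these data known. The rule for solved pairs, the limit of 500, the bands of like mean count and the limit of 50 for shared sequences were chosen after seeing the data. The genes named are the members, at most 4 examples of each list, genes that overlap members, the 5 long non-coding RNAs with the highest means and neighbours in rank. Alternatives were the other filter, level per kilobase, other sets of ranked genes, 25-base and 50-base sequences, a wider tolerance and leaving out each solved library.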

Additional observations from a re-analysis of the deposited data

How the results depend on the processing

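Mean counts, ranks under XenofilteR and among genes with a mean of at least 1, and the ratios divided by the protein-coding median all stayed within the limits used (1% between filters for means and ratios, 1.5 times for ranks, for shares of sequence and for means without 1 library). Of 91 alternative values, 65 stayed within the limit of their kind and 26 moved. PCAT1 with the wider tolerance, which no longer met the rule for accepted reads, is not among the 91. Ranks among all genes that are not protein-coding come from a larger set, which by construction cannot place a gene higher. Kallisto gave no value for any member, and PCGEM1 has no rank among genes with a mean of at least 1. Per kilobase, NEAT1 moved to rank 36, PCAT1 to 1952, PCA3 to 3596, LINC01088 to 7934 and DRAIC to 3076. Among all genes that are not protein-coding, MALAT1 took rank 3, NEAT1 8, PCAT1 509, DRAIC 649, PCA3 1641, LINC01088 9106 and PCGEM1 17030. With 25-base sequences the share found in mouse transcripts was 1.31% for MALAT1, 0.627% for NEAT1, 0.476% for PCAT1, 0.437% for PCA3, 0.118% for DRAIC, 0.0585% for PCGEM1 and 0.0466% for LINC01088. With 50-base sequences it was 0.152% for MALAT1, 0.0565% for NEAT1 and 0% for PCAT1, PCA3 and DRAIC. Longer sequences match less often by construction.

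Without each solved library in turn, the mean count ran from 372 to 412 for PCAT1, from 269 to 338 for DRAIC, from 83.6 to 106 for PCA3, from 2.00 (without library 6, which holds 1 read) to 3.84 for LINC01088, and from 0.0823 (without library 2, which holds 4 of the 6 reads) to 0.233 for PCGEM1. With the tolerance 10 times as wide the nearest reads were the same for all 5 solved members, but PCAT1 no longer met the rule, as a second pair came within 0.2. With Xenome on its own, LINC01088 and PCGEM1 alone have 1 solution, and PCA3, DRAIC and PCAT1 give no value. No paired analysis was possible because the values are means over both groups and the solved libraries carry no replicate number. The depth of libraries 4 to 6 limits every value there, and MALAT1 and NEAT1 were not searched for values per library.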

Other observations

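The 6 solved libraries fall into 2 clusters by depth, with size factors of 4.86 to 5.93 in libraries 1 to 3 and of 0.109 to 0.427 in libraries 4 to 6, and the labels used here tie none of them to a culture condition. Estimated total counts after Xenome were 206 to 251 M in libraries 1 to 3 and 4.61 to 18.1 M in libraries 4 to 6. Whether the 2 clusters are the 2 culture conditions was not tested. PCAT1 read 310 to 372 in libraries 1 to 3 and 413 to 511 in libraries 4 to 6, and DRAIC 146 to 275 and 291 to 487. Counting error does not keep these ranges apart. The interval of PCAT1 in library 6 (301 to 553) overlaps those of libraries 1 to 3. That of DRAIC in library 4 (242 to 347) overlaps those of libraries 2 and 3. The values of PCAT1 also depend on the tolerance of the search. For PCA3 the ranges themselves overlapped, with 53.1 to 115 and 73.5 to 164. Of the 170 solved long non-coding RNAs with means of 250 to 450, 11.8% had all of libraries 4 to 6 above libraries 1 to 3 and 19.4% had them all below. These are values of unassigned libraries and were not tested.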
